A study of Mus musculus with 28 samples.

Results

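The 38 genes described here encode proteins of the sarcomere, the contractile unit of striated muscle, and of the Z-disc that joins neighbouring sarcomeres. They were chosen by name from the 55536 gene identifiers measured, and all 38 were found. They comprise 13 thin filament genes, 10 genes of the thick filament and M-band, 12 genes of titin and the Z-disc, and the set of desmin, alpha B crystallin and muscle creatine kinase. Each was followed in RNA-seq libraries from 3 mouse lines, all labelled wild type. C2C12 is a muscle line labelled as myotubes, EO771 is a breast cancer line, and MLg comes from lung fibroblasts. The 28 libraries form 7 groups of 4: C2C12 with EO771, C2C12 alone, EO771 with C2C12, EO771 with MLg, EO771 alone, MLg with EO771 and MLg alone, where "with" marks a line taken from a shared culture and named first. All lines were kept in DMEM with fetal bovine serum. The sources used here do not give how co-cultured lines were separated, nor whether the libraries of a group are independent cultures. A p-value here thus measures only spread among deposited libraries, part of which may be technical. In bulk RNA, fewer cells of a type and less RNA per cell cannot be told apart.

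Sarcomeres are built when myoblasts leave the cell cycle, fuse and switch on a shared set of contractile genes. Actin thin filaments carry nebulin and the troponin complex, which senses calcium. Myosin thick filaments are cross-linked at the M-band by myomesins, and titin spans from the Z-disc to the M-band. The Z-disc anchors thin filaments through alpha-actinin, to which myozenins, telethonin (Tcap), Ldb3 and myotilin attach. C2C12 cells are a standard culture model of this programme.

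The titles of the libraries carry an R number whose meaning is not stated. C2C12 libraries named R3 stood apart for most of the genes below, so values are given by library, each named by its R number and the number that follows it. The lowest library total was 27.61 M counts, in EO771 with C2C12, and the highest was 96.49 M, in C2C12 alone. Within groups the totals spanned 36.47 to 62.96 M (C2C12 with EO771), 54.83 to 96.49 M (C2C12 alone), 27.61 to 47.41 M (EO771 with C2C12) and 33.21 to 48.34 M (EO771 with MLg). The other totals were 34.09 to 38.98 M (EO771 alone), 33.79 to 57.53 M (MLg with EO771) and 61.73 to 69.69 M (MLg alone). Levels are in CPM, the count of a gene divided by the library total in M, and a floor of 3 counts lay between 0.0311 and 0.109 CPM, covering counting error only. In 5 co-culture libraries (EO771 with C2C12 R3-1, R5-1 and R6-1, and MLg with EO771 R5-1 and R6-1) every count was even.

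Promoters of 26 of the 38 genes were found in a RefSeq table (build GRCm38.p6), each running from 250 bases before to 50 bases after a start. Sequences of 5 are printed because they span the patterns described below: Acta1 (chr8:123894726-123895025, minus strand), Mylpf (chr7:127211358-127211657, plus strand), Des (chr1:75360042-75360341, plus strand) and Tnnt2 (chr1:135836084-135836383, plus strand) are promoters of transcripts that stood far higher in C2C12 than in MLg, and Tmod4 (chr3:95124264-95124563, plus strand) is that of a gene at like levels in both lines. Capitals mark matches, on either strand, to the E-box CANNTG, bound by myogenic factors such as MyoD, to TATAAA, the core of the TATA box, and to CATTCC, the motif of TEAD factors.
Acta1: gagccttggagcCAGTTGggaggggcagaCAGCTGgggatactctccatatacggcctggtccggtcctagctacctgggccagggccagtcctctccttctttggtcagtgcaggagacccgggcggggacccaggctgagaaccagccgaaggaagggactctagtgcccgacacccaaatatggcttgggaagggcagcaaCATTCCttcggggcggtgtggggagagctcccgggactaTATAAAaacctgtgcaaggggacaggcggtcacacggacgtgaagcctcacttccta
Mylpf: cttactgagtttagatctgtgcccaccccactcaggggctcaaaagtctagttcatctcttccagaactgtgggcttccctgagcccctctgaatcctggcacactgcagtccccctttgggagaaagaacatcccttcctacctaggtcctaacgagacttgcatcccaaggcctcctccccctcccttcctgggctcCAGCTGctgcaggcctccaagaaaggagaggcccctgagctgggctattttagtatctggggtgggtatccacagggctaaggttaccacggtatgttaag
Des: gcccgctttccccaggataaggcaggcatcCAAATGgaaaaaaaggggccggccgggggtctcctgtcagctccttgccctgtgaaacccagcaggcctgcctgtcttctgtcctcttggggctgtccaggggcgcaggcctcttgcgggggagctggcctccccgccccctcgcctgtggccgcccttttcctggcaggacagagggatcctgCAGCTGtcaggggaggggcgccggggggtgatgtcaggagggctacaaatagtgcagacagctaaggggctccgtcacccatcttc
Tnnt2: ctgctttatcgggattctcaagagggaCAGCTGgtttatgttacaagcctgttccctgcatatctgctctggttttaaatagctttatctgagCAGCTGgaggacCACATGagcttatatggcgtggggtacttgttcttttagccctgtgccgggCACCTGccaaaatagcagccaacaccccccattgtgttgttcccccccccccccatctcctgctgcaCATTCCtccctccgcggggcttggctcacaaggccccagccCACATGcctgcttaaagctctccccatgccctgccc
Tmod4: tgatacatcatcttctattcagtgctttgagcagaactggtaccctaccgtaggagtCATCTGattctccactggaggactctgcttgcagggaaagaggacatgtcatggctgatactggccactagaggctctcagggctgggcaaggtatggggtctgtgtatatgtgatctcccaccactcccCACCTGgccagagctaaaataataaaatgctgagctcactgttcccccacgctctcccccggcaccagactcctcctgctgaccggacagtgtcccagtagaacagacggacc
Across these 5 windows the E-box matched 2 times in Acta1, 1 time in Mylpf, 2 times in Des, 5 times in Tnnt2 and 2 times in Tmod4. The TATA box was found only in Acta1 among the 5, and the TEAD motif in Acta1 and Tnnt2. Of the 26 genes, 23 (88.5%) held an E-box, against 75.0% of 27025 genes in the table. The TATA box was found in 5 (19.2%, against 15.7%), the TEAD motif in 8 (30.8%, against 16.6%) and the MEF2 motif in 4 (15.4%, against 3.70%). These matches describe letters in the windows and do not show that a factor binds there.

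In the lines grown alone, the sarcomere genes separated C2C12 from MLg fibroblasts by large margins. Acta1, skeletal alpha-actin, measured 586, 33.4, 68.7 and 932 CPM in C2C12 alone libraries R2-1, R3-1, R3-2 and R5-1. In MLg alone it averaged 0.561 ± 0.536 CPM (SD, n = 4). Every C2C12 library lay above every MLg library, and the log2 fold change was 9.58 (adjusted p = 7.16e-06, edgeR quasi-likelihood test with Benjamini-Hochberg adjustment). Des, the muscle intermediate filament protein, averaged 346 ± 198 CPM in C2C12 alone and 0.896 ± 0.272 CPM in MLg alone (SD, n = 4 each), a log2 fold change of 8.72. Of the 33 sarcomere genes that passed the count filter, 31 were higher in C2C12 alone and 0 were lower by edgeR, where 61.9% of 18755 genes were called in either direction, with 31.0% higher and 30.9% lower. Their median log2 fold change was 8.00, against -0.03 for all genes tested. Genes near absent in MLg alone and EO771 alone, such as Lmod3, Smpx and Myoz2, passed the filter only through C2C12 alone. They could only come out higher, so the count and the median are description only. Xirp2, an actin-binding repeat protein, had 0 counts in every MLg alone library. Its mean of 4.89 ± 3.59 CPM in C2C12 alone (SD, n = 4) was at least 435-fold higher than the floor of 3 counts over the 4 MLg libraries, and the median did not change with Xirp2 at that bound.

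The genes not called in that contrast were Tmod4 and Cryab. Tmod4, the skeletal muscle tropomodulin that caps thin filament pointed ends, measured 2.33, 1.55, 2.19 and 2.54 CPM in C2C12 alone and 2.25, 2.80, 3.21 and 2.46 CPM in MLg alone. The groups overlapped, with a log2 fold change of -0.16 (SE 0.23, adjusted p = 0.56 by edgeR). Cryab, the small heat shock chaperone alpha B crystallin, measured 188, 143, 130 and 287 CPM in C2C12 alone and 131, 170, 170 and 173 CPM in MLg alone. Its log2 fold change was 0.36 (SE 0.18, adjusted p = 0.0994 by edgeR). The Cryab difference passed the test when C2C12 alone R3-2 was left out (log2 0.47, adjusted p = 0.0239) and when the R3 libraries were left out (log2 0.60, adjusted p = 0.0027). The 5 genes filtered from this contrast were Myl3, Myot, Myoz1, Myoz3 and Tnnc2, all under 1 CPM on average in C2C12 alone.

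The myotube label was checked against markers. In C2C12 alone R2-1, R3-1, R3-2 and R5-1, embryonic myosin heavy chain Myh3 measured 888, 43.1, 117 and 724 CPM, and myogenin (Myog), the factor that drives terminal differentiation, measured 66.5, 9.48, 12.2 and 98.4 CPM. Both were lowest in the R3 libraries but present in all. Other myosin heavy chains were scarcer there. In the same order Myh2 measured 15.7, 0.529, 1.66 and 22.9 CPM, and Myh8 measured 10.5, 0.404, 0.893 and 30.9 CPM. Per kilobase of exon, the C2C12 alone libraries had most RNA from Mylpf, the fast regulatory light chain of myosin, at 361 CPM per kb. Acta1 followed at 264, Tnnc1, the slow and cardiac calcium-binding troponin, at 156, Cryab at 126 and Tnnt3, fast troponin T, at 110 CPM per kb. In C2C12 with EO771 the first 4 places were held by the same genes, at 286, 210, 139 and 124 CPM per kb.

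**Figure D1:**
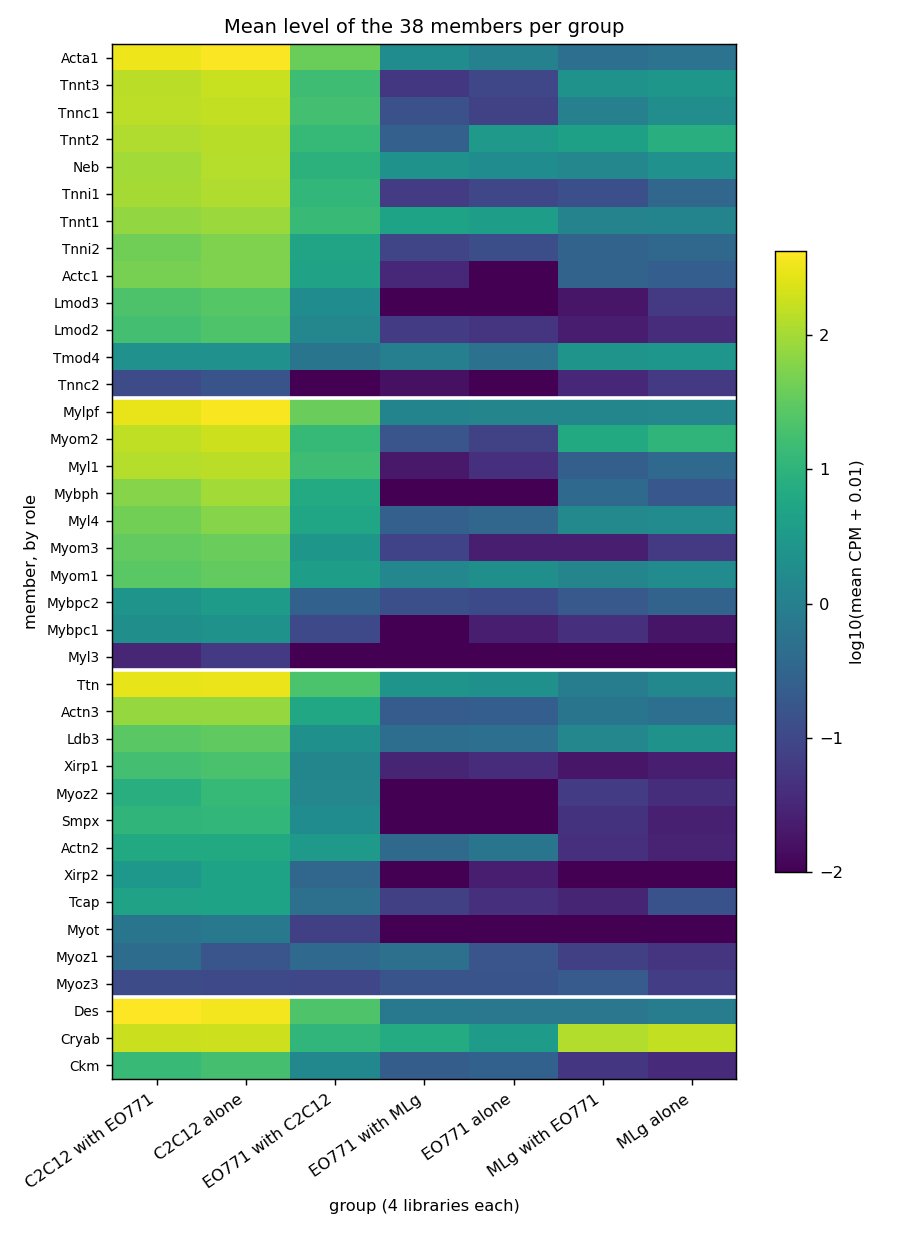
Heat map of the mean level of the 38 genes (down the page, grouped by role and ordered within each role by the level in C2C12 alone) in the 7 groups (across), on a scale of log10(mean CPM + 0.01). The C2C12 columns are bright for most genes and EO771 with C2C12 is intermediate. Cryab and Tmod4 are the tested genes not called between C2C12 alone and MLg alone.

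Co-culture with EO771 gave no called change of a sarcomere gene in C2C12. Of the 38 genes, 35 were tested; 0 passed by edgeR and 0 by DESeq2, and 0 had an unadjusted p under 0.05, where edgeR called 2.68% of 16625 genes (2.58% as higher and 0.0962% as lower). The genes left out by the filter were Tnnc2, Myl3 and Myoz3. The median log2 fold change of the 35 was -0.25, against -0.00 for all genes, and 32 of the 35 lay below 0. The standard errors of single genes were large, and libraries of the same group differed several-fold. The fit held no term for the R number, so differences between R numbers are part of these errors. A p that misses the threshold does not show that the levels were alike.

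Thin filament genes show this spread. Acta1 measured 86.5, 457, 417 and 330 CPM in C2C12 with EO771 R3-1, R5-1, R5-2 and R6-1, against 586, 33.4, 68.7 and 932 CPM in C2C12 alone R2-1, R3-1, R3-2 and R5-1. The co-culture libraries lay inside the range of the libraries grown alone. The means were 323 ± 166 and 405 ± 433 CPM (SD, n = 4 each), and the log2 fold change was -0.35 (SE 0.89, adjusted p = 0.945 by edgeR). Nebulin (Neb), the giant thin filament protein, averaged 98.0 ± 46.5 CPM in co-culture and 128 ± 118 CPM alone (SD, n = 4 each). The 12 thin filament genes tested all had log2 fold changes below 0, with a median of -0.28 and 0 calls.

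Thick filament and M-band genes had the same layout. Mylpf measured 74.6, 446, 366 and 328 CPM in the co-culture libraries, in the order above, against 593, 33.5, 68.0 and 840 CPM alone. Its log2 fold change was -0.36 (SE 0.88). Myom2, an M-band myomesin, measured 75.7, 173, 195 and 170 CPM in co-culture, against 345, 33.8, 69.1 and 311 CPM alone, a log2 fold change of -0.34 (SE 0.63). In both genes the lowest library of each group was an R3 library. Mybph, myosin-binding protein H, measured 15.8, 70.3, 95.5 and 64.7 CPM in co-culture and 153, 6.29, 13.1 and 212 CPM alone, a log2 fold change of -0.66. Mybpc2, the fast myosin-binding protein C, measured 0.713, 3.35, 3.22 and 2.55 CPM in co-culture and 6.75, 0.145, 0.377 and 7.06 CPM alone, a log2 fold change of -0.56. For both, the co-culture libraries again lay within the range of the libraries grown alone. All 9 tested genes of this role lay below 0, with a median of -0.33.

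Among titin and Z-disc genes, Ttn measured 112, 357, 430 and 268 CPM in co-culture, against 503, 38.8, 120 and 578 CPM alone, a log2 fold change of -0.12 (SE 0.71). Myoz1, a fast-fibre myozenin, had the largest positive log2 fold change, 1.35 (SE 0.79, adjusted p = 0.628 by edgeR), with 0.184, 0.713, 0.397 and 0.361 CPM in co-culture against 0.0547, 0.0415, 0.0558 and 0.478 CPM alone. These are low levels, and C2C12 alone R5-1 overlapped the co-culture libraries. Without C2C12 alone R5-1, Myoz1 was called higher in co-culture (log2 2.91, adjusted p = 0.0339 by edgeR), the median of the tested genes turned to 0.34, and 5 of the 35 lay below 0 in place of the 32. Xirp2 had the most negative value, -0.78 (SE 0.60, adjusted p = 0.75 by edgeR), with 1.15, 2.14, 3.99 and 4.33 CPM in co-culture against 7.66, 1.20, 2.44 and 8.26 CPM alone. Myoz2, the slow and cardiac myozenin, measured 1.70, 10.1, 11.0 and 9.25 CPM in co-culture and 19.2, 0.902, 1.45 and 29.0 CPM alone, a log2 fold change of -0.68. Actn3, the fast alpha-actinin that cross-links thin filaments, measured 27.5, 117, 99.8 and 74.5 CPM in co-culture and 124, 18.5, 26.8 and 139 CPM alone, a log2 fold change of 0.02 (SE 0.64). Its sign turned with the scaling, to -0.00 with DESeq2-type size factors.

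Des measured 193, 727, 399 and 380 CPM in co-culture, against 441, 171, 194 and 579 CPM alone, a log2 fold change of 0.26 (SE 0.45, adjusted p = 0.913 by edgeR). Ckm, the muscle creatine kinase that buffers ATP at the myofibril, measured 5.31, 18.5, 14.8 and 13.0 CPM in co-culture and 33.3, 2.48, 5.26 and 33.7 CPM alone, a log2 fold change of -0.56. Cryab averaged 183 ± 65.0 CPM in co-culture and 187 ± 71.0 CPM alone (SD, n = 4 each). None of these differences exceeded the spread between libraries.

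**Figure D2:**
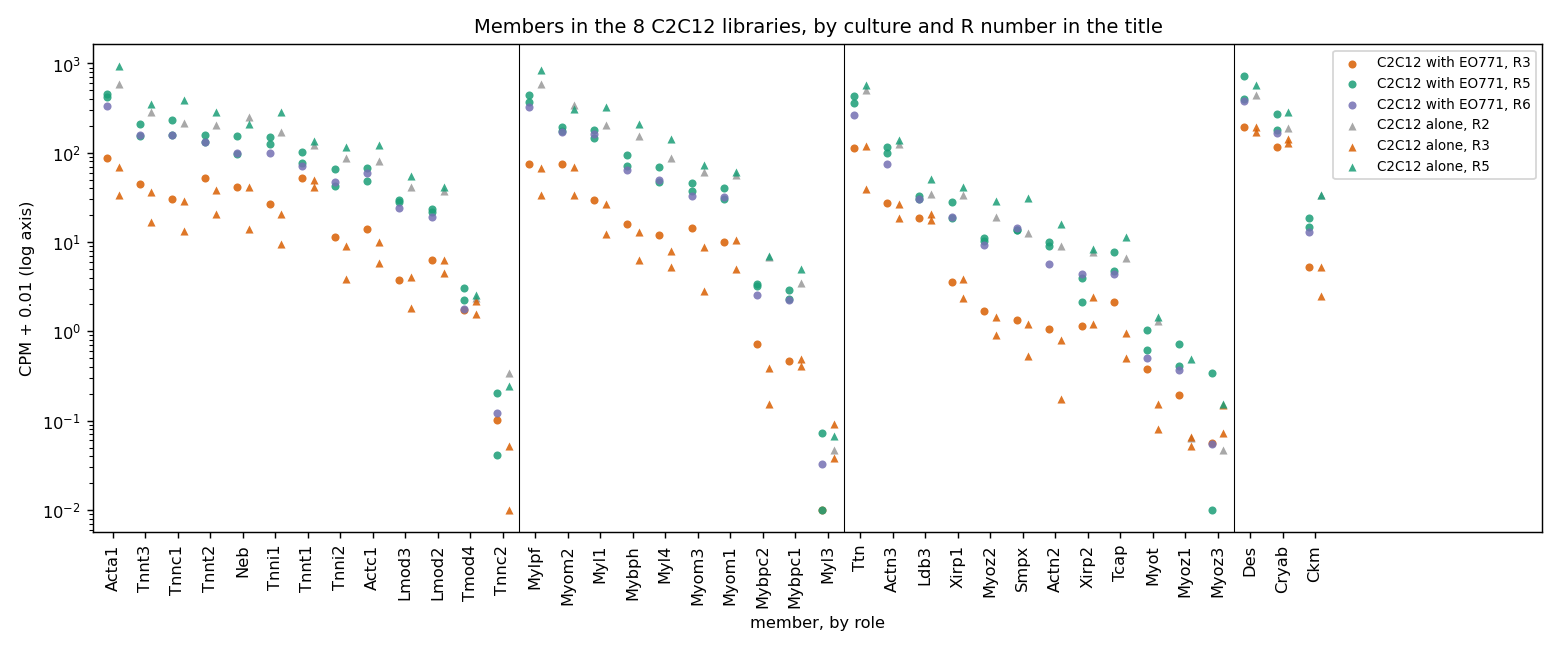
CPM + 0.01 (log axis) of each of the 38 genes in the 8 C2C12 libraries, grouped by role, with circles for C2C12 with EO771 (left of each position), triangles for C2C12 alone and colours for the R number. The R3 libraries of both cultures form the low end for most genes, by a median of 5.86-fold for the 35 genes tested.

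The C2C12 libraries named R3 held less RNA of most sarcomere genes in both cultures. For 32 of the 35 tested genes, all 3 R3 libraries (1 co-culture, 2 alone) lay below all 5 others, a layout seen in 12.5% of the 16625 genes tested. The reverse, R3 above all others, was seen in 0 of the 35 and in 5.20% of all genes. The mean of the other libraries over that of R3 had a median of 5.86-fold over the 35 genes (1.31 to 16.7), against 1.07-fold over all genes. Among libraries grown alone, the same ratio had a median of 12.0-fold (1.30 to 26.4), against 1.06-fold over all genes. Among co-culture libraries it was 3.54-fold (1.36 to 10.4). The exceptions to the separation were Tmod4, Myoz1 and Xirp2.

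The separation held across roles and fibre types. In genes at 1 CPM or more it was complete for 11 of 12 thin filament genes (median 7.39-fold), 9 of 9 thick filament and M-band genes (median 8.77-fold), 8 of 9 titin and Z-disc genes (median 5.86-fold) and 3 of 3 of Des, Cryab and Ckm (median 2.72-fold). Genes of fast fibres had a median of 8.81-fold, those of slow fibres 8.69-fold, and the embryonic or cardiac genes Actc1, Tnnt2 and Myl4 7.56-fold. The ratio was largest for Smpx, a small muscle protein, at 16.7-fold, and for Actn2, the alpha-actinin of all muscle fibres, at 14.7-fold. It was smallest for Tmod4 at 1.31-fold and for Cryab at 1.69-fold.

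Genes of related lists were read the same way, at 1 CPM or more. Myosin heavy chains, the motors of the thick filament, were lower in R3 than in all other libraries for 6 of 6 genes (median 13.2-fold). Chaperones and assembly factors of the sarcomere, among them Unc45b and Smyd1, were lower for 8 of 10 (median 5.37-fold), other sarcomere and Z-disc genes for 13 of 21 (4.90-fold), muscle metabolism for 8 of 11 (3.38-fold), and myogenic regulators for 5 of 11 (1.26-fold). Smooth muscle contractile genes were lower for 0 of 6 and higher for 2 of 6 (median 0.621-fold). Fibroblast genes were lower for 1 of 6 and higher for 2 of 6 (median 0.748-fold), and genes of undifferentiated or cycling myoblasts were lower for 1 of 7 (median 2.20-fold). What the R number stands for, and its part in these differences, was not tested.

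Within R3 and within R5 the co-culture contrast had medians on opposite sides of 0. In R3, where 1 co-culture library stands against 2 alone, the co-culture library lay above both for 23 of 35 genes, a layout met by 45.9% of all genes. The median ratio was 1.47 (0.631 to 3.78). In R5, where 2 co-culture libraries stand against 1 alone, both lay below it for 32 of 35 genes, a layout met by 26.2% of all genes. The median ratio there was 0.523 (0.364 to 1.16). Both layouts together were met by 22 of 35 genes, and by 10.5% of all genes. In R3, for example, Acta1 measured 86.5 CPM with EO771 against 33.4 and 68.7 CPM alone, and in R5 it measured 457 and 417 CPM with EO771 against 932 CPM alone. With 1 library on a side, no difference within an R number has a replicate check, and the difference between R3 and R5 was not tested.

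**Figure D3:**
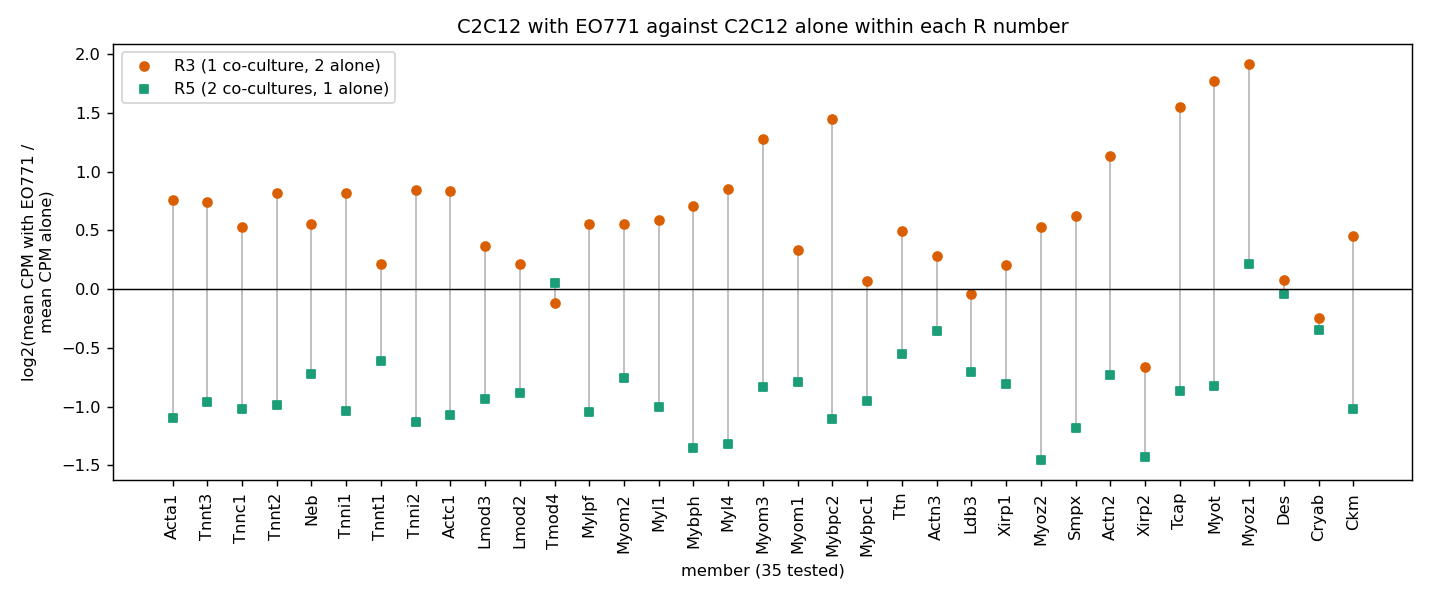
Log2 of the ratio of mean CPM in C2C12 with EO771 over mean CPM in C2C12 alone, computed within R3 (circles, 1 co-culture and 2 alone) and within R5 (squares, 2 co-cultures and 1 alone) for the 35 genes tested. Most circles lie above 0 (median 0.56) and most squares below it (median -0.94).

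Without the R3 libraries, a setting added after the data were seen, 3 co-culture libraries were set against 2 alone. Of 36 genes tested, 6 fell and 0 rose in co-culture by edgeR, where 0.209% of 17241 genes were called lower, and the median log2 fold change was -0.84. Myoz2 fell by 1.28 on the log2 scale (SE 0.21, adjusted p = 0.0209) and Mybph fell by 1.27 (SE 0.21, adjusted p = 0.0218). Mybpc2 fell by 1.21 (adjusted p = 0.0417) and Ckm fell by 1.14 (adjusted p = 0.021). Lmod2, a leiomodin that nucleates actin, fell by 0.91 (adjusted p = 0.0279), and Myom2 fell by 0.90 (adjusted p = 0.0245). All 6 were lower in R5-1, R5-2 and R6-1 with EO771 than in R2-1 and R5-1 alone. With the R5 libraries alone, 3 of 37 genes fell (Myoz2, Mybph and the embryonic light chain Myl4), where 0.105% of 18088 genes were called lower, and the lone library grown alone is then assumed to vary like the co-cultures. These calls rest on which libraries are kept, since 0 of 35 were called with all 8.

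Other cell types in the C2C12 libraries were read from marker lists. Krt8, an epithelial keratin of EO771, was called higher in C2C12 with EO771, at 4.92, 8.64, 3.68 and 4.83 CPM, against 0.109, 0, 0.0279 and 0.087 CPM in C2C12 alone. The summed level of 7 genes of undifferentiated or cycling myoblasts was 107 to 265 CPM in co-culture and 70.4 to 159 CPM alone. Of these 7, 4 had an unadjusted p under 0.05, as did 1777 of all 16625 genes. None of the 7 was called, and their median log2 fold change was 1.07. This list summed to 1401 to 1702 CPM in EO771 alone, so it does not measure C2C12 myoblasts only. The fibroblast list summed to 25222 to 28400 CPM in co-culture and 21357 to 23778 CPM alone, with 0 of 6 tested genes called. In C2C12 alone most of it came from Col3a1, at 18008.5 to 20067.6 CPM. MLg alone, the fibroblast line, had a lower list sum, 12783 to 17397 CPM, so this sum does not measure fibroblasts only. The epithelial list summed to 5.42 to 12.4 CPM in co-culture and 0.394 to 4.23 CPM alone. Of this list only Krt8 was well expressed in EO771 alone. Krt19 and Cldn4 were at 0 there, and Krt7, Krt18 and Epcam stayed under 1 CPM. Krt19 measured 3.46 CPM in C2C12 alone R5-1, so the list sum does not measure EO771 RNA only. The macrophage list summed to 22.4 to 34.6 CPM in co-culture and 20.6 to 26.7 CPM alone, most of it from Cd14 at 16.9 to 28.3 CPM in co-culture and 16.8 to 21.7 CPM alone. The adipocyte list summed to 7.00 to 9.32 CPM in co-culture and 7.90 to 10.7 CPM alone, most of it from Pparg, and the endothelial list to 1.47 to 2.91 CPM in co-culture and 0.754 to 2.01 CPM alone. Of the tested genes of these last 3 lists, 0 of 4, 0 of 2 and 0 of 1 were called. Single genes of the lists, Ptprc, Adgre1, Cldn4, Thy1 and Plin1, were at or near 0, while Cd14 and Pparg were not. Cldn4 was at 0 in EO771 alone too, and Thy1 was at or near 0 in MLg alone, the fibroblast line. Low Cldn4 and Thy1 thus cannot show whether EO771 cells or fibroblasts were present. The part of these lists in the sarcomere values was not tested.

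The libraries of EO771 taken from culture with C2C12 held sarcomere transcripts far above EO771 alone. Acta1 measured 21.4, 30.6, 85.9 and 15.2 CPM in EO771 with C2C12 R5-1, R5-2, R6-1 and R3-1, against 0.763, 1.31, 0.742 and 1.40 CPM in EO771 alone R3-1, R3-2, R5-1 and R6-2. All co-culture libraries lay above all libraries grown alone, and the log2 fold change was 5.10 (SE 0.53, adjusted p = 1.07e-06 by edgeR). Of 30 genes tested, 28 rose and 0 fell, where edgeR called 33.0% of 15794 genes in either direction, 18.7% as higher and 14.3% as lower. Their median log2 fold change was 4.89, against 0.00 over all genes. By role, 11 of 12 thin filament genes rose, 7 of 7 thick filament and M-band genes, 7 of 8 titin and Z-disc genes and 3 of 3 of Des, Cryab and Ckm. Genes without counts in EO771 alone (named below) passed the count filter only through EO771 with C2C12. Their direction was set by the filter, so these counts and the median are description only.

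Among thick filament and M-band genes, Myom2 measured 9.24, 10.4, 19.9 and 10.2 CPM in EO771 with C2C12, against 0.117, 0.0513, 0.0571 and 0.0561 CPM in EO771 alone. Its log2 fold change was 7.34 (SE 0.40, adjusted p = 6.87e-10 by edgeR). Mylpf measured 22.4, 34.9, 75.6 and 13.2 CPM in EO771 with C2C12, against 1.47, 1.00, 1.23 and 1.43 CPM in EO771 alone, a log2 fold change of 4.76. In both genes the groups were far apart, and R6-1 was the highest library. Des averaged 22.8 ± 13.9 CPM in EO771 with C2C12 and 0.717 ± 0.336 CPM in EO771 alone (SD, n = 4 each), a log2 fold change of 4.91. Ttn measured 15.9, 28.8, 28.9 and 8.97 CPM in EO771 with C2C12, against 1.23, 2.18, 2.43 and 2.50 CPM in EO771 alone, a log2 fold change of 3.23.

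Genes with 0 counts in all 4 EO771 alone libraries were Actc1 (cardiac alpha-actin), Mybph, Myoz2, Lmod3 and Smpx among those tested. Against the floor of 3 counts over that group, EO771 with C2C12 was at least 325-fold higher for Mybph and at least 223-fold higher for Actc1. It was at least 86.2-fold higher for Lmod3, at least 84.9-fold for Smpx and at least 64.9-fold for Myoz2. With these 5 at their bounds the median log2 fold change was again 4.89.

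Cryab, Tnnt1 and Tnnt2, which EO771 alone already held, had smaller fold changes than these. Cryab measured 9.58, 10.9, 16.9 and 7.34 CPM in EO771 with C2C12, against 3.81, 4.00, 3.51 and 3.23 CPM in EO771 alone (log2 1.54, adjusted p = 3.92e-05 by edgeR). Tnnt1, slow troponin T, measured 10.4, 11.0, 19.0 and 14.2 CPM, against 4.20, 3.64, 2.94 and 4.66 CPM in EO771 alone (log2 1.75). Tnnt2, cardiac troponin T, measured 7.89, 10.4, 26.4 and 5.42 CPM, against 3.26, 2.82, 3.40 and 2.86 CPM in EO771 alone (log2 1.95, adjusted p = 0.00298 by edgeR). For these genes too the groups did not overlap. Neb measured 8.69, 11.2, 12.1 and 5.13 CPM, against 2.05, 1.82, 1.77 and 1.49 CPM in EO771 alone. Myom1, another myomesin, measured 3.46, 3.73, 5.39 and 2.39 CPM, against 1.32, 2.46, 2.14 and 2.22 CPM, so that its groups overlapped. Its call (log2 0.80, adjusted p = 0.0497 by edgeR) was lost in 11 of the other settings. The genes not called were Tmod4, at 0.591, 0.797, 0.483 and 0.582 CPM against 0.440, 0.795, 0.457 and 0.533 CPM in EO771 alone (log2 0.06, SE 0.41), and Myoz1 (log2 1.20, adjusted p = 0.0775 by edgeR).

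Transcript levels in EO771 with C2C12 were set beside those in C2C12 with EO771. For 13 sarcomere genes under 0.1 CPM in EO771 alone and at 5 CPM or more in C2C12 with EO771, the level in EO771 with C2C12 was taken as a share of the mean in C2C12 with EO771. The median share was 7.09% in R5-1, 9.26% in R5-2, 22.6% in R6-1 and 4.53% in R3-1. For the 654 other genes that met the same limits it was 0.627%, 0.906%, 1.48% and 1.19% in the same libraries. The 13 sarcomere genes thus had larger shares in each library, and R6-1 was the highest for them. Averaged over the 4 libraries, the median was 10.8% (7.72 to 16.9) for the 13 genes and 1.08% for the other 654, whose 95th percentile was 6.69%. Each of the 13 lay above that percentile. With the C2C12 library of the same R number as the denominator, added after the data were seen, the medians for the 13 genes were 4.99%, 6.87%, 19.7% and 14.5%, against 0.690%, 0.886%, 1.48% and 1.10% for the others.

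**Figure D4:**
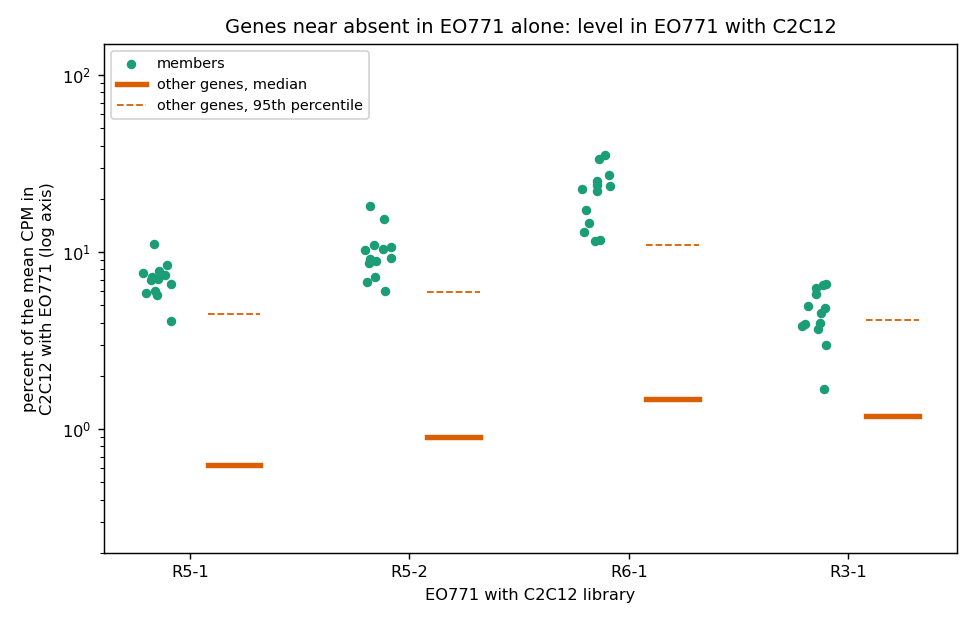
Level in each EO771 with C2C12 library as a percent of the mean CPM in C2C12 with EO771 (log axis), for genes under 0.1 CPM in EO771 alone. Green points are the 13 sarcomere genes, and orange lines give the median (solid) and 95th percentile (dashed) of 654 other genes; the points lie above the solid line in every library.

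The same shares were taken for genes of other lists that met the same limits in EO771 alone and in C2C12 with EO771. In R5-1, R5-2, R6-1 and R3-1, the median share was 6.63%, 7.96%, 13.8% and 1.93% over 5 myosin heavy chains. It was 8.04%, 10.6%, 17.9% and 3.70% over 3 assembly factors and chaperones, and 2.82%, 5.26%, 12.7% and 2.94% over 6 myogenic regulators and fusion genes. Myh4 and Myh1, fast myosin heavy chains, had mean shares of 10.6% and 7.52%, Smyd1, a chaperone-linked methyltransferase of muscle, 14.6%, Mef2c 12.7%, the fusion gene Mymk 9.10% and Myog 8.76%. The mean share was 2.94% for Myod1 and 1.09% for Myf5. Among genes under 0.1 CPM in EO771 alone and at 5 CPM or more in C2C12 with EO771, 11 of the 30 with the highest shares were sarcomere genes. Myosin heavy chains were called higher for 3 of 3 tested, assembly factors and chaperones for 5 of 8, and myogenic regulators for 5 of 9, where 18.7% of 15794 genes were called higher. Listed genes near absent in EO771 alone could pass the count filter only through a co-culture group, which set their direction. Fibroblast genes, which C2C12 also expressed, were called higher for 5 of 6. Over the 2 fibroblast genes that met the limits, the median share was lower than in the muscle lists. It was 0.166% in R5-1, 0.672% in R5-2, 0.612% in R6-1 and 1.76% in R3-1. RNA or cells of C2C12 carried into these libraries, and expression by EO771 itself, cannot be told apart in these bulk counts.

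Actn2, singled out after its values were seen, had a layout unlike that of Acta1 and Mylpf in the shared culture. It measured 2.49, 3.19, 3.11 and 3.32 CPM in EO771 with C2C12 R5-1, R5-2, R6-1 and R3-1, against 0.821, 0.564, 0.514 and 0.618 CPM in EO771 alone (log2 2.19, SE 0.38, adjusted p = 0.000224 by edgeR). The 4 co-culture libraries were close to each other, while Acta1 and Mylpf differed several-fold between them. Narrower ranges than those of Acta1 and Mylpf were also seen for Myom3 (2.04 to 3.80 CPM) and Tnnt1 (10.4 to 19.0 CPM). In the C2C12 cells of the shared culture, Actn2 measured 1.06, 9.93, 9.13 and 5.66 CPM in R3-1, R5-1, R5-2 and R6-1, so that the R3-1 value was higher in EO771 with C2C12 than in C2C12 with EO771. Its mean share of the C2C12 with EO771 mean was 46.9 ± 5.72% (SD, n = 4), and 37.2% after the EO771 alone mean was subtracted. As a share of the C2C12 library of the same number it was 25.1% in R5-1, 34.9% in R5-2, 54.9% in R6-1 and 314% in R3-1. It was not among the 13 genes above because EO771 alone held more than 0.1 CPM. Myoz1 too measured more in EO771 with C2C12 R3-1 (0.641 CPM) than in C2C12 with EO771 R3-1 (0.184 CPM), at low counts.

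EO771 taken from culture with MLg fibroblasts had few sarcomere differences from EO771 alone, which is the same group of 4 libraries used above. Of 30 genes tested, 2 rose and 1 fell by edgeR, where 9.59% of 15794 genes were called, 5.99% as higher and 3.60% as lower. The median log2 fold change was 0, against 0.01 over all genes; Lmod3, Mybph, Myoz2 and Smpx had 0 counts in every library of both groups. Acta1 measured 0.890, 2.41, 0.871 and 2.92 CPM in EO771 with MLg R6-1, R5-1, R6-2 and R7-1, overlapping the 0.742 to 1.40 CPM of EO771 alone. Its log2 fold change was 0.74 (adjusted p = 0.499 by edgeR).

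Tnnt2 fell in EO771 with MLg. It measured 0.0207, 0.542, 0.0545 and 0.392 CPM, against 3.26, 2.82, 3.40 and 2.86 CPM in EO771 alone. The groups were far apart, with means of 0.252 ± 0.256 and 3.08 ± 0.286 CPM (SD, n = 4 each) and a log2 fold change of -3.66 (SE 0.59, adjusted p = 0.000266 by edgeR). Without each library in turn the log2 fold change lay between -4.32 and -3.22. MLg cells of the same culture held 6.57, 3.37, 2.29 and 4.58 CPM of Tnnt2. Tnnt1, the slow paralogue, measured 5.15, 4.28, 5.20 and 4.61 CPM in EO771 with MLg, against 4.20, 3.64, 2.94 and 4.66 CPM in EO771 alone, which overlapped (log2 0.33, adjusted p = 0.384 by edgeR).

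Cryab rose in EO771 with MLg, to 8.54, 5.03, 7.24 and 7.03 CPM, against 3.81, 4.00, 3.51 and 3.23 CPM in EO771 alone. The groups did not overlap, and the log2 fold change was 0.95 (SE 0.22, adjusted p = 0.00833 by edgeR). With the R number as a replicate block it was 0.70 and was not called (adjusted p = 0.094 by edgeR). The 612 genes of MLg that were near absent in EO771 alone had median shares of 1.06% to 1.99% in these libraries, and the MLg Cryab level times the share gives 1.94 CPM. The part of MLg RNA in the Cryab difference was not tested. Myoz1 measured 0.600, 0.632, 0.408 and 0.368 CPM in EO771 with MLg, against 0.176, 0.154, 0.200 and 0.0842 CPM in EO771 alone (log2 1.71, SE 0.49, adjusted p = 0.033 by edgeR). The Myoz1 groups did not overlap, but both were low. The call was lost without any 1 of EO771 alone R3-1, R3-2, R5-1 or R6-2, or of EO771 with MLg R6-1 or R5-1 (adjusted p between 0.0594 and 0.113 by edgeR).

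In MLg fibroblasts, 21 of the 38 genes were high enough to test. With EO771, 4 of the 21 fell and 0 rose by edgeR, where 14.7% of 16823 genes were called, 9.89% as higher and 4.81% as lower. The median log2 fold change of the 21 was -0.36, against -0.00 over all genes, and 18 lay below 0. Cryab measured 118, 135, 113 and 126 CPM in MLg with EO771 R5-1, R6-1, R6-2 and R7-1, against 131, 170, 170 and 173 CPM in MLg alone R3-2, R5-2, R6-1 and R6-2. Only MLg alone R3-2 overlapped the co-culture libraries. The log2 fold change was -0.36 (adjusted p = 0.0234 by edgeR), and the call was lost without MLg alone R5-2, R6-1 or R6-2 or MLg with EO771 R6-2 (adjusted p between 0.0582 and 0.0776 by edgeR).

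Myom2 measured 5.15, 6.57, 6.34 and 7.45 CPM in MLg with EO771, against 13.2, 8.42, 10.1 and 10.5 CPM in MLg alone. The groups did not overlap, and the log2 fold change was -0.71 (adjusted p = 0.0131 by edgeR). The call was kept without each library in turn, with log2 values of -0.81 to -0.56. Ldb3, a PDZ-LIM protein of the Z-disc, measured 1.24, 1.29, 1.61 and 1.37 CPM in MLg with EO771, against 1.76, 2.54, 2.58 and 2.36 CPM in MLg alone (log2 -0.72, adjusted p = 0.0367 by edgeR). Tnnc1 measured 1.07, 1.11, 0.624 and 1.29 CPM, against 1.66, 1.75, 2.16 and 1.78 CPM in MLg alone (log2 -0.82, adjusted p = 0.0467 by edgeR). Neither gene overlapped between groups, at levels near 1 to 3 CPM. The Ldb3 call was lost without MLg alone R5-2, R6-1 or R6-2 or MLg with EO771 R5-1, R6-1 or R7-1 (adjusted p between 0.0578 and 0.104 by edgeR). The Tnnc1 call was lost without MLg alone R5-2, R6-1 or R6-2 or MLg with EO771 R5-1, R6-1 or R6-2 (adjusted p between 0.0727 and 0.128 by edgeR). Tnnt2 measured 6.57, 3.37, 2.29 and 4.58 CPM in MLg with EO771, against 16.4, 4.55, 5.41 and 5.18 CPM in MLg alone (log2 -0.90, adjusted p = 0.176 by edgeR). Krt8 was called higher in MLg with EO771, at 17.8, 5.91, 4.42 and 9.14 CPM, against 0.474, 0.227, 0.245 and 0.243 CPM in MLg alone, and its part in these values was not tested.

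**Figure D5:**
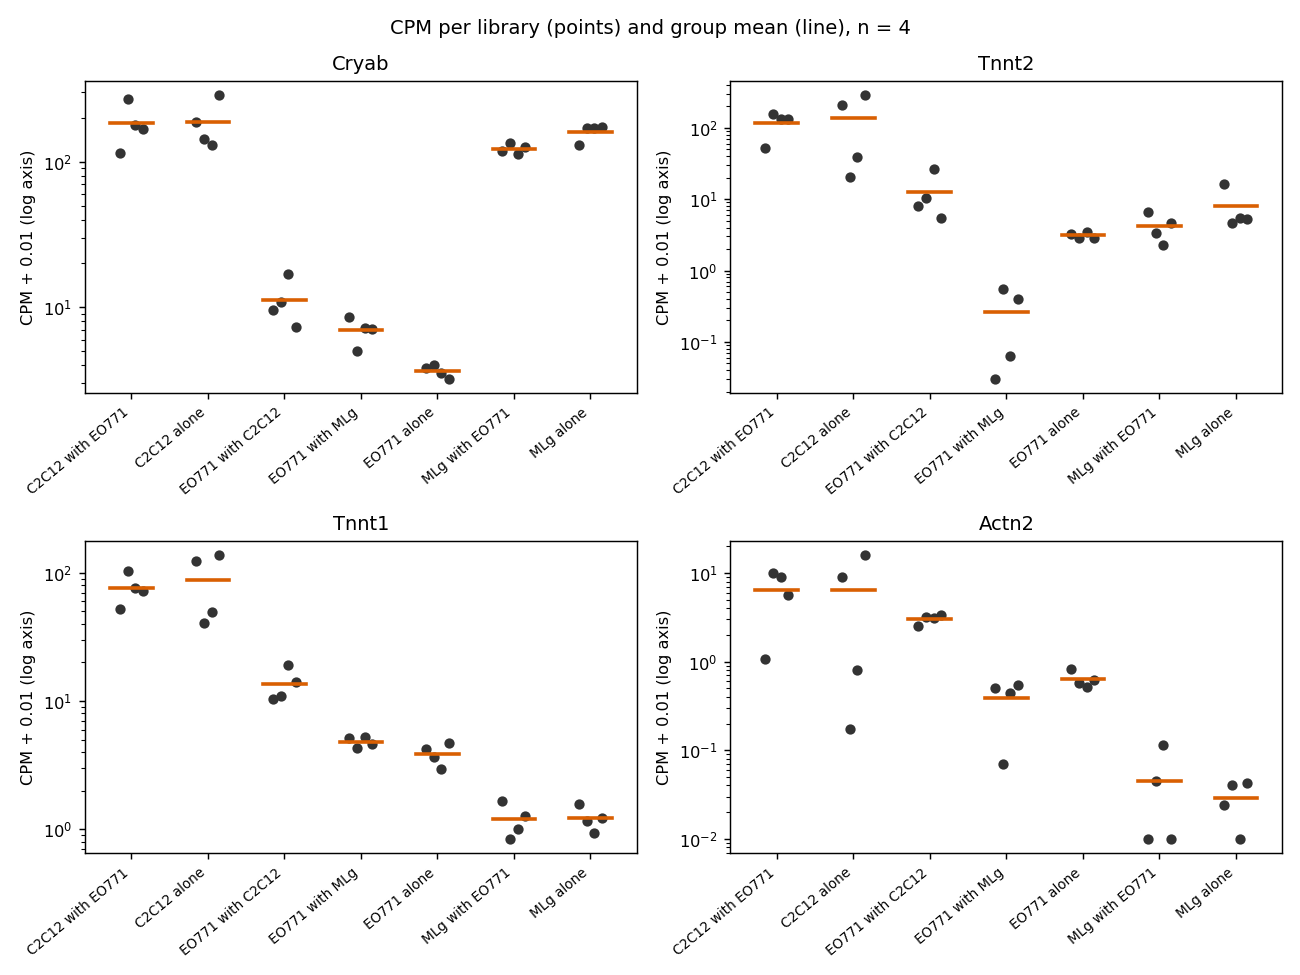
CPM + 0.01 (log axis) of Cryab, Tnnt2, Tnnt1 and Actn2 in every library (points) with the group mean (line), n = 4 libraries per group. Tnnt2 is lowest in EO771 with MLg (mean 0.252 CPM), and Actn2 is at 2.49 to 3.32 CPM in EO771 with C2C12.

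The responses of C2C12 and MLg to EO771 were compared in 1 model. Of 36 sarcomere genes tested, 0 differed in response by edgeR and 0 by DESeq2, and 0 had an unadjusted p under 0.05, where edgeR called 1.84% of 18647 genes (0.778% as higher and 1.06% as lower in C2C12). The wide spread of the C2C12 libraries enters this test, and a p that misses the threshold does not show that the responses were alike.

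Some levels are uncertain because genes share sequence or position. Acta1 and Actc1 are near-identical in sequence to other actins, so reads could be split between them. Cryab, Tnnt3, Tnnc1, Tnnc2, Myl3, Mybph, Myom1 and Xirp1 overlap other annotated genes (Hspb2, Prr33, Nisch, Ube2c, Pth1r, Adora1, Myl12a and Cx3cr1 in that order). Xirp1 and Cx3cr1 lie on the same strand. Further genes, among them Acta1, Ttn, Neb, Myom2, Des and Ckm, overlap annotated genes with Gm or Rik names. The libraries were made with a stranded kit, but the sources used here do not give the strand setting used in counting.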

How the data were processed

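Counts of polyadenylated RNA were analysed in 28 libraries of 7 groups, taken from the labels. The authors deposited gene counts that were not normalized. Tools listed in the submitters' processing notes are DESeq2, Subread 2.0.1 with featureCounts, STAR 2.7.10a and fastp, with no roles given. The sources used here name no build, annotation or strand setting. All 55536 identifiers matched GENCODE M21, the source of exon lengths. A pair of files (EO771 with C2C12 R5-1 and R5-2) carry each other's name, and the sample record was followed.

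CPM used library totals. Each comparison was fitted on all genes with edgeR 4.0.16 in R 4.3.3 (quasi-likelihood, TMM, Benjamini-Hochberg, called at adjusted p under 0.05). The filter was filterByExpr with a minimum count of 10 and total of 15. The code was also run on simulated counts with a capped spread and no R number shift. Those counts do not cover the spread of the sarcomere genes in C2C12. The 12 EO771 libraries shared 1 fit. Alternatives were DESeq2 1.42.0, other scalings, no filter, halved even counts, leaving out each library, an R number block, and, added after the data were seen, leaving out the R3 libraries, R5 alone and a same-number share denominator.

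The 38 genes and all lists were chosen with earlier results of these data known. Libraries are given one by one for the 5 highest and 5 lowest log2 fold changes and the 5 highest levels in C2C12 and for genes at 1 CPM or more in MLg alone or EO771 alone; only 3 log2 fold changes in C2C12 were above 0, so 3 rises are named. Actn2, Actc1, Lmod2, Lmod3, Smpx and Myl4 were also named after their values were seen.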

Additional observations from a re-analysis of the deposited data

Results flagged for a closer look

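A library was singled out where its gap to the nearest other library of its group of 4, divided by the group's range, was above Dixon's critical value. Of 134 groups with a mean of 1 CPM or more, 5 met this; chance gives about 1 in 20. In EO771 with C2C12, R6-1 was the highest for Actc1 (11.3 CPM, others 1.81 to 2.82) and for Myom2 (19.9 CPM, others 9.24 to 10.4). In C2C12 with EO771, R3-1 was the lowest for Smpx (1.33 CPM, others 13.6 to 14.2). In MLg alone, R3-2 was the highest for Tnnt2 (16.4 CPM, others 4.55 to 5.41) and the lowest for Cryab (131 CPM, others 170 to 173).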

How the results depend on the processing

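In C2C12 with EO771 against C2C12 alone, the count of sarcomere genes called lower was 6 without the R3 libraries and 3 with R5 alone, in place of 0, and the median log2 fold change was -0.84 and -0.94. Leaving out each library gave 0 to 1 genes called higher and medians of -0.61 to 0.34. The count of all genes called was 749 by DESeq2, 1176 with all 28 libraries in 1 fit, 225 with R3 and R5 only and 279 with R5 only, against 445. Signs turned for Des (-0.0067 with the replicate block, -0.046 without R3, -0.0445 with R5 only; -0.13 to 0.60 without each library), Actn3 (-0.0033 by DESeq2, -0.0026 with RLE factors, -0.070 with the block, -0.46 without R3, -0.36 with R5 only; -0.30 to 0.44), Ttn (0.26 with R3 and R5; -0.48 to 0.35) and Myom2 (0.074 with R3 and R5; -0.68 to 0.12). Without each library the ranges were -0.73 to 0.44 for Acta1, -0.74 to 0.34 for Mylpf, -1.07 to 0.11 for Myoz2 and -1.05 to 0.054 for Mybph. In EO771 with C2C12, Tmod4 ranged from -0.092 to 0.27, and 27 to 29 genes were called higher. In EO771 with MLg, the genes called higher were 1 with the block, 1 with 28 libraries and 1 to 2 without each library. In MLg with EO771, the genes called lower were 0 with 28 libraries and 1 to 4 without each library, those called higher 0 to 1, and all genes called 1569 to 2994; Tnnt1 was 0.073 with the block and -0.23 to 0.14 without each library. The test of unlike responses called 744 genes by DESeq2, against 343. The summed level in EO771 alone was 21.3 TMM-scaled CPM. The cause of these differences was not tested, beyond the smaller sample where libraries were left out.

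Same-numbered libraries had correlated deviations in C2C12 (0.64 for R3, 0.55 for R5) but not elsewhere (-0.15 to 0.12). The pairing criterion was thus not met across the comparisons, and the replicate block is an alternative only. The main C2C12 fit held no term for the R number, so differences between R numbers entered its standard errors. The replicate block lost the calls of Cryab in EO771 with MLg and of Myom1 in EO771 with C2C12 (0.65, adjusted p = 0.0955 by edgeR).

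Levels under about 1 CPM rest on few counts.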

Other observations

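Genes outside the sarcomere also differed in the co-culture libraries of MLg and EO771. In MLg with EO771, the cell cycle genes Ccnb1, Top2a, Cdk1 and Ccna2, 4 of 5 tested genes of that list, were called higher, and the smooth muscle contractile genes Acta2, Myl9 and Lmod1 were called lower while Cnn1 was called higher, where 9.89% of 16823 genes were called higher and 4.81% lower. The list that holds these cell cycle genes summed to 1401 to 1702 CPM in EO771 alone and 479 to 544 CPM in MLg alone. The part of EO771 RNA in the MLg with EO771 values was not tested. In EO771 with C2C12, Ccnb1, Top2a and Cdk1 were called lower, 3 of 5 tested, where 14.3% of 15794 genes were called lower. In EO771 with MLg, 3 of 5 tested smooth muscle contractile genes (Acta2, Myl9 and Lmod1) and 5 of 6 fibroblast genes were called higher, where 5.99% of 15794 genes were called higher. The part of MLg RNA in these calls was not tested.

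Pax7, a marker of muscle stem cells, measured 0.690, 11.5, 15.4 and 13.3 CPM in C2C12 with EO771 R3-1, R5-1, R5-2 and R6-1, and 2.92, 0.684, 0.698 and 15.0 CPM in C2C12 alone R2-1, R3-1, R3-2 and R5-1. The R3 libraries were the lowest for this gene too. Mpp2, which is in none of the lists, had the highest share in EO771 with C2C12 among genes under 0.1 CPM in EO771 alone and at 5 CPM or more in C2C12 with EO771, at 33.7% of its mean level in C2C12 with EO771.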
